A study of Mus musculus with 20 samples.

Results

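The liver sets the iron balance of the body through a small circuit of genes, and 8 of them are described here across 20 livers of *Crem* KO and WT mice. They are *Hamp*, *Tfr2*, *Tmprss6*, *Slc40a1*, *Tfrc*, *Bmp6*, *Id1* and *Smad7*, each read by 1 probe set that the array annotation gives to that gene alone, among 25689 probe sets with a value. Of these, the 20777 probe sets with 1 gene stand for 19661 genes. CREM is a transcription factor that responds to cyclic AMP, and the study asked how its absence alters gene expression in the liver. Whole liver RNA was hybridized from 5 Crem-/- mice (KO) and 5 WT mice taken at 12 h, and from 5 KO and 5 WT mice taken at 0 h, with 1 mouse per array. All were 8 weeks old and untreated, with a mixed 129Pas x C57Bl/J background, and were kept with free food and water, where 0 h was lights on (7 am) and 12 h was lights off (7 pm).

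As background, hepcidin, the peptide hormone encoded by *Hamp*, is made by hepatocytes and causes the iron exporter ferroportin (*Slc40a1*) to be removed from cell surfaces, which lowers the release of iron into blood. Its transcription is driven by BMP6 from sinusoidal endothelium through SMAD signalling, with hemojuvelin as co-receptor and HFE and transferrin receptor 2 (*Tfr2*) as sensors of iron-loaded transferrin, and it is opposed by the membrane protease matriptase-2 (*Tmprss6*). *Id1* and *Smad7* are other targets of the same SMAD signal, SMAD7 being an inhibitor that feeds back on it, and transferrin receptor 1 (*Tfrc*) takes up iron and has an mRNA that is more stable when cell iron is low. Interleukin 6 raises *Hamp* through STAT3 in inflammation.

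The mouse has a pair of hepcidin genes, *Hamp* and *Hamp2*, and the stretches upstream of both starts are shown side by side. Whether a difference between the stretches bears on expression was not tested. *Hamp2* is no member of the circuit as listed here and was added after its values were seen. The sequences are the 250 bases before each annotated start in RefSeq (GRCm38.p6), at chr7:30944030-30944279 for *Hamp* and chr7:30924182-30924431 for *Hamp2*, both on the minus strand and written 5′ to 3′. Capitals mark a BMP response element core (GGCGCC in *Hamp*) and a STAT3 element (TTCTTGGAA).
Hamp: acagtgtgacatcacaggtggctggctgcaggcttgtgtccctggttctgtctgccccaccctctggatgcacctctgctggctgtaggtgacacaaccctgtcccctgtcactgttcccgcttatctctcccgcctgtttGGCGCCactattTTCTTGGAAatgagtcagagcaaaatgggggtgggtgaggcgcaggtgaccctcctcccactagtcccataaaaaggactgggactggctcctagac
Hamp2: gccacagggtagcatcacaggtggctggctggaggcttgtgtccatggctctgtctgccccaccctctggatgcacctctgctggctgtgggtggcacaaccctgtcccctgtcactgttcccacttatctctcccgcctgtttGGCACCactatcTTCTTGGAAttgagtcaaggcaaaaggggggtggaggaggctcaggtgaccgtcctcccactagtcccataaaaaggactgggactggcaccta
Aligned with overhanging ends left free, 227 of 247 paired bases were identical (91.9%). The STAT3 element stood in both, with its first base 97 bases before the start in *Hamp* and 94 in *Hamp2*. The place of the BMP element, first base 109 bases before the start in *Hamp* and 106 in *Hamp2*, held GGCACC in *Hamp2*, a G4A substitution counted from base 1 of the element in *Hamp*. GGCGCC, which is its own reverse complement, occurred in 9.59% of 32851 RefSeq windows of 250 bases, and TTCTTGGAA on either strand in 0.365%. Windows were at hand for 4 of the 8 members, with 3 for *Tfr2*, 2 for *Tfrc* and 1 each for *Hamp* and *Bmp6*. A member was counted when any of its windows matched, while the percentages are per window. Among these members, *Hamp* and *Tfrc* held GGCGCC, and none held the cyclic AMP element TGACGTCA (1.55% of windows). *Tfr2* and *Tfrc* held the shorter TGACG (17.8% of windows, either strand). A match is a run of letters and not a measured binding site.

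The values were the deposited log2 expression values after RMA, a method that corrects background, normalizes between arrays and sums the probes of a set. Pairs of arrays correlated at 0.969 to 0.994, array medians lay between 7.07 and 7.17 at 12 h and between 7.18 and 7.24 at 0 h, and 9 of 9 measured hepatocyte markers were among the brightest 10% of probe sets. Each probe set has its own brightness, so that levels are set against each other only within a gene. The labels also give a batch number without saying what it stands for. Batch 5 held all 10 arrays at 12 h and batches 1 to 4 the 10 arrays at 0 h, each with both genotypes, so that time and batch cannot be told apart while genotypes can be compared within batches. In KO livers the *Crem* probe set read 7.67, 7.48, 7.83, 7.64 and 7.39 at 12 h, against 8.01, 8.02, 7.90, 8.01 and 7.93 in WT livers. At 0 h it read 8.17, 7.43, 8.07, 7.87 and 7.69 in KO livers, against 8.31, 8.11, 8.54, 8.42 and 8.24 in WT livers. The groups were apart at 12 h (two-sided exact permutation p = 0.00794, and 5 against 5 mice can give none smaller). The genotypes were likewise apart at 12 h for 2.42% of all probe sets. At 0 h the *Crem* groups overlapped (exact p = 0.0159) through KO mouse 1, at 8.17. In the model fitted to all probe sets (limma), *Crem* did not pass for genotype. Its Benjamini-Hochberg adjusted p was 0.19 at 12 h, 0.987 at 0 h and 0.135 over both times (0.0494 without KO mouse 1). The sources used here do not give which part of the gene is deleted or whether the probes lie in it.

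More of the circuit differed between the times, which here cannot be told apart from batch, than between the genotypes. In livers taken at 12 h against 0 h, *Tfr2* was higher in both genotypes, *Tmprss6* in KO, *Tfrc* and *Smad7* in WT, and *Slc40a1* in both, whereas *Hamp* itself passed in neither. Each called member was higher at 12 h. Since whole livers were measured, a different number of cells of a type and a different amount of RNA per cell cannot be told apart. In KO livers 3 of 8 members passed (limma, Benjamini-Hochberg adjusted p under 0.05 over all probe sets), where 20.3% of all probe sets passed, 10.6% as higher and 9.69% as lower. In WT livers 4 of 8 passed, where 27.8% passed, 13.5% as higher and 14.3% as lower. The median log2 fold change of the 8 members was 0.30 in KO and 0.22 in WT livers, beside -0.02 and -0.03 over all probe sets. All 5 livers at 12 h lay above all 5 at 0 h for 2 members in KO (8.87% of all probe sets did so) and for 3 in WT (9.21%). When each array was centred on its median, the shares of called probe sets that were higher went to 69.6% in KO and 72.6% in WT, beside 52.2% and 48.5% as deposited. Of the members, *Id1* in KO livers and *Bmp6* under quantile normalization in WT livers changed sign with such a rescaling, and no called member did. The mean level of the 9 hepatocyte markers was also higher at 12 h, at 13.22 to 13.31 in KO livers against 13.01 to 13.11 at 0 h, and at 13.30 to 13.34 in WT livers against 13.02 to 13.16 at 0 h, with 2 of the 9 called higher in KO, 3 in WT and 0 lower in either. Their median log2 fold change was only 0.02 in KO and 0.10 in WT livers. The mean leaned on *Pck1*, which averaged 12.95 at 12 h against 11.53 at 0 h in KO livers. In WT livers *Pck1* averaged 13.10 against 11.84. The part of the marker level in the members' changes was not tested.

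**Figure D1:**
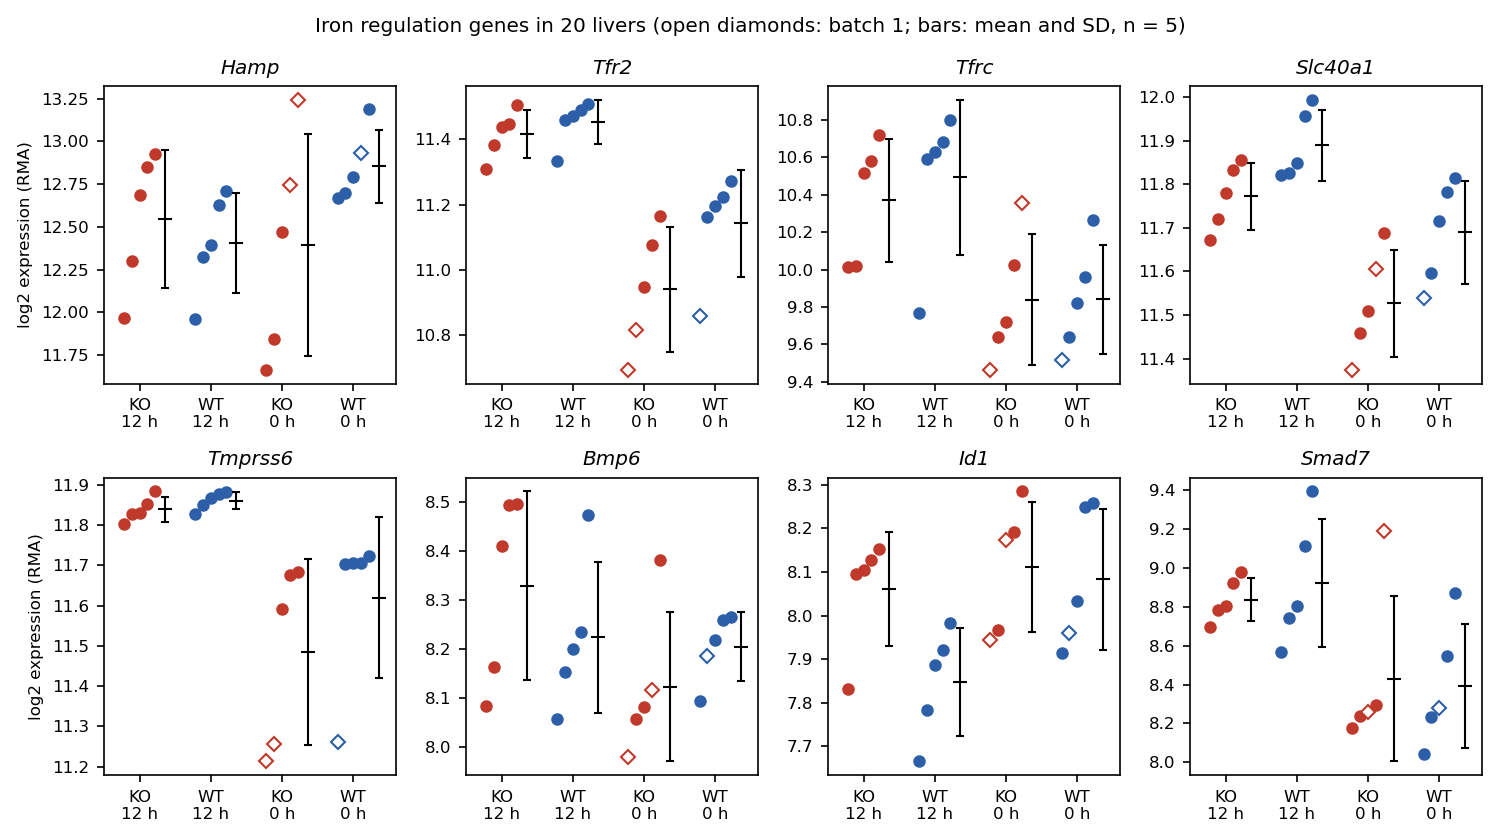
Log2 expression (RMA) of the 8 iron regulation genes in each of 20 livers, with KO and WT at 12 h and then KO and WT at 0 h on the horizontal axis. Each point is 1 mouse, open diamonds are the 3 arrays of batch 1, and bars are the mean and SD (n = 5). For *Tfr2* and *Tmprss6* all livers at 12 h lie above those at 0 h of their genotype, with the batch 1 livers lowest, while *Hamp* overlaps between all groups.

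*Tfr2*, the hepatocyte sensor of iron-loaded transferrin, had the firmest difference. In KO livers it read 11.45, 11.44, 11.38, 11.50 and 11.31 at 12 h, against 10.82, 10.69, 11.08, 11.17 and 10.95 at 0 h. In WT livers it read 11.51, 11.33, 11.46, 11.47 and 11.49 at 12 h, against 10.86, 11.22, 11.20, 11.16 and 11.27 at 0 h. No liver at 12 h reached down to the 0 h livers of its genotype. The log2 fold change was 0.47 ± 0.09 (SE, 1.39-fold, limma adjusted p = 0.000427) in KO and 0.31 ± 0.09 (1.24-fold, adjusted p = 0.0115) in WT, with exact p = 0.00794 for each. Without the 3 arrays of batch 1 it was 0.35 in KO (adjusted p = 0.00313) and 0.24 in WT (adjusted p = 0.0157).

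*Tmprss6*, the protease that restrains hepcidin by acting on hemojuvelin, was higher at 12 h in KO. In KO livers it read 11.88, 11.83, 11.85, 11.80 and 11.83 at 12 h, against 11.26, 11.21, 11.68, 11.68 and 11.59 at 0 h. In WT livers it read 11.85, 11.83, 11.88, 11.88 and 11.87 at 12 h, against 11.26, 11.72, 11.70, 11.71 and 11.71 at 0 h. The 10 livers at 12 h stood within a narrow band above all 10 at 0 h, with an SD of 0.03 in KO and 0.02 in WT, while the SD at 0 h was 0.23 and 0.20. The log2 fold change was 0.35 ± 0.10 (SE, 1.28-fold) in KO livers, which passed (limma adjusted p = 0.0111), and 0.24 ± 0.10 (1.18-fold) in WT livers, which did not (adjusted p = 0.0667), although the exact p was 0.00794 for each. The WT value lay near the threshold, and it passed with only bright probe sets (adjusted p = 0.042), with a trended prior (adjusted p = 0.0419), when arrays were centred (0.33, adjusted p = 0.0127) and without KO mouse 143 (adjusted p = 0.0499). Without batch 1 the change was 0.19 in KO (adjusted p = 0.0437) and 0.15 in WT (adjusted p = 0.0554).

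The 3 arrays of batch 1 (KO mice 77 and 143 and WT mouse 146) held the lowest *Tmprss6* and *Tfr2* levels of all 20. A comparison added after seeing the data set batch 1 against batches 2 to 4 within the 0 h livers, with genotype in the model. *Tmprss6* differed by -0.43 ± 0.06 (SE, rank 6 of 25689 by p, limma adjusted p = 0.0863) and *Tfr2* by -0.33 ± 0.07 (rank 110, adjusted p = 0.202). *Hamp* went the other way, by 0.64 ± 0.22 (adjusted p = 0.382). In that comparison 0% of probe sets passed, with 2466 at an unadjusted p under 0.05, so no member was called. What the batch number stands for is not given.

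*Tfrc*, the receptor through which cells take up transferrin iron, read 10.02, 10.01, 10.58, 10.52 and 10.72 in KO livers at 12 h, against 10.35, 9.46, 10.02, 9.64 and 9.72 at 0 h. In WT livers it read 10.63, 10.68, 10.80, 10.59 and 9.77 at 12 h, against 9.52, 10.27, 9.96, 9.82 and 9.64 at 0 h. In WT, 4 of 5 livers at 12 h stood above all at 0 h and mouse 170 (9.77) fell among them, and in KO, 3 of 5 stood above all. The log2 fold change was 0.65 ± 0.20 in WT (SE, 1.57-fold, limma adjusted p = 0.0164, exact p = 0.0317). It was 0.53 ± 0.20 in KO (1.44-fold, adjusted p = 0.0604, exact p = 0.0556). The KO value passed when any 1 of KO mice 77, 18 and 55 or WT mouse 170 was left out, with an adjusted p between 0.0231 and 0.0406, and also with only the arrays compared, only bright probe sets, centring or array weights (adjusted p 0.0348 to 0.0463).

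*Slc40a1*, the ferroportin gene, read 11.83, 11.86, 11.72, 11.78 and 11.67 in KO livers at 12 h, against 11.37, 11.60, 11.51, 11.69 and 11.46 at 0 h. In WT livers it read 11.85, 11.82, 11.96, 11.82 and 11.99 at 12 h, against 11.54, 11.72, 11.78, 11.60 and 11.81 at 0 h. The WT groups were apart by little, and in KO 4 of 5 livers at 12 h were above all at 0 h. On the log2 scale the change was 0.25 ± 0.07 in KO (SE, 1.19-fold, limma adjusted p = 0.0203, exact p = 0.0159) and 0.20 ± 0.07 in WT (1.15-fold, adjusted p = 0.0463, exact p = 0.00794). Both calls were close to the threshold. The WT call was lost when any 1 of 11 mice was left out (WT 78, 80, 146, 111, 168 and 170, KO 1, 76, 18, 109 and 110; log2 fold change 0.16 to 0.21, adjusted p 0.0503 to 0.122), the KO call without KO mouse 77 (0.21, adjusted p = 0.0642) or KO mouse 55 (0.22, adjusted p = 0.051), and both without batch 1 (0.22 in KO, adjusted p = 0.0758, and 0.16 in WT, adjusted p = 0.119). The WT call was also lost with batch as a random block, with only the arrays compared and with array weights (adjusted p 0.057 to 0.0992).

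*Bmp6*, the ligand that reports liver iron to hepatocytes, did not pass in either genotype. It read 8.49, 8.50, 8.41, 8.16 and 8.08 in KO livers at 12 h, against 7.98, 8.12, 8.06, 8.08 and 8.38 at 0 h. It read 8.47, 8.06, 8.20, 8.23 and 8.15 in WT livers at 12 h, against 8.19, 8.26, 8.09, 8.27 and 8.22 at 0 h. The groups overlapped in both genotypes, though 3 of 5 KO livers at 12 h stood above all KO livers at 0 h. On the log2 scale the change was 0.21 ± 0.09 in KO (SE, limma adjusted p = 0.131, and 0.27 with adjusted p = 0.049 without KO mouse 76) and 0.02 ± 0.09 in WT (adjusted p = 0.903).

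*Smad7*, a target of the BMP signal that inhibits it in turn, was higher at 12 h in WT. It read 8.69, 8.98, 8.92, 8.80 and 8.79 in KO livers at 12 h, against 8.26, 9.19, 8.18, 8.29 and 8.24 at 0 h. It read 9.11, 8.57, 8.74, 8.80 and 9.39 in WT livers at 12 h, against 8.28, 8.87, 8.05, 8.23 and 8.54 at 0 h. In KO livers all 5 at 12 h stood above 4 of the 5 at 0 h, and mouse 143, at 9.19, was above them all. The change, 12 h over 0 h, was 0.53 ± 0.18 in WT (SE, 1.44-fold, limma adjusted p = 0.0314, exact p = 0.0476) and 0.41 ± 0.18 in KO (1.33-fold, adjusted p = 0.118, exact p = 0.0556). Without KO mouse 143 the KO value was 0.60 and passed (adjusted p = 0.00772), as it did without batch 1 (0.60, adjusted p = 0.0235). The WT call was lost without any 1 of WT mice 80, 145, 146, 111 and 170 (0.41 to 0.50, adjusted p 0.0645 to 0.103), with quantile normalization (0.45, adjusted p = 0.0673) and with array weights (0.50, adjusted p = 0.0501).

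*Id1*, another BMP target and an inhibitor of helix-loop-helix factors, was not called. It read 8.13, 8.15, 8.09, 8.10 and 7.83 in KO livers at 12 h, against 7.94, 8.17, 7.97, 8.19 and 8.29 at 0 h. It read 7.92, 7.98, 7.67, 7.78 and 7.89 in WT livers at 12 h, against 7.96, 8.25, 7.91, 8.26 and 8.03 at 0 h. The WT livers at 12 h were on the low side, 3 of them below every WT liver at 0 h. The change, 12 h over 0 h, was -0.24 ± 0.09 in WT (SE, limma adjusted p = 0.0581, exact p = 0.0397) and -0.05 ± 0.09 in KO (adjusted p = 0.751), and the WT value passed when any 1 of WT mice 145, 146 and 167 or KO mouse 166 was left out (adjusted p 0.0353 to 0.0492) or with only bright probe sets (adjusted p = 0.0349).

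*Hamp*, the hepcidin gene, was not called at either comparison of time. It read 12.85, 12.93, 12.69, 12.30 and 11.97 in KO livers at 12 h, against 12.75, 13.25, 11.85, 11.66 and 12.47 at 0 h. It read 12.63, 12.39, 11.96, 12.33 and 12.71 in WT livers at 12 h, against 12.93, 13.19, 12.79, 12.70 and 12.67 at 0 h. The KO livers at 0 h spread over the whole range of the series, with an SD of 0.65 beside 0.21 in WT livers at 0 h, and in WT 4 of 5 livers at 12 h stood below all livers at 0 h. Its log2 fold change was 0.15 ± 0.24 in KO (SE, 95% interval -0.34 to 0.64, limma adjusted p = 0.702), and 0.55 without batch 1 (adjusted p = 0.105). It was -0.45 ± 0.24 in WT (0.731-fold, interval -0.94 to 0.04, adjusted p = 0.16, exact p = 0.0238), and it passed when only the 10 WT arrays were fitted (adjusted p = 0.034), where the spread of the KO livers did not enter.

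**Figure D2:**
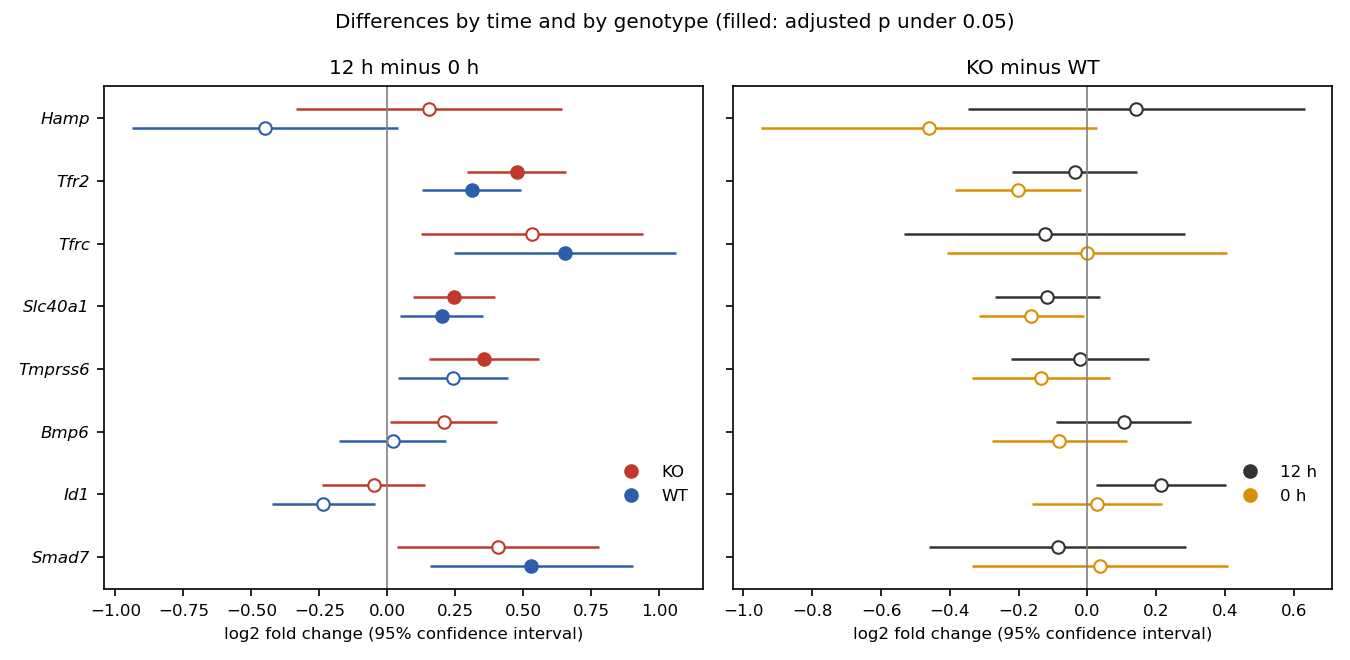
Log2 fold change of the 8 genes with 95% confidence intervals, 12 h minus 0 h in KO and WT livers on the left and KO minus WT at 12 h and 0 h on the right. Filled points passed at an adjusted p under 0.05, which 3 members did in KO and 4 in WT for time and 0 did for genotype.

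No member passed the test for genotype, and neither did *Crem*. Of 8 members 0 passed at 12 h, where 0.0234% of all probe sets passed and 3216 had an unadjusted p under 0.05. At 0 h 0 passed, where 0% of all probe sets passed and 1148 had an unadjusted p under 0.05. Over both times 0 passed, where 0.0117% of all probe sets passed and 2537 had an unadjusted p under 0.05. The median log2 fold change of the members, KO minus WT, was -0.03 at 12 h and -0.11 at 0 h. The plot of fold changes shows that the widest intervals belonged to *Hamp*, *Tfrc* and *Smad7*, so that for these genes differences of up to 0.63, 0.28 and 0.29 above and 0.35, 0.53 and 0.46 below WT at 12 h remained within the 95% intervals.

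The members nearest to a difference were these. *Slc40a1* averaged 11.77 ± 0.08 in KO and 11.89 ± 0.08 in WT livers at 12 h (SD, n = 5 each), and 11.53 ± 0.12 in KO and 11.69 ± 0.12 in WT livers at 0 h. Over both times KO minus WT was -0.14 ± 0.05 on the log2 scale (SE, limma adjusted p = 0.404), and the KO mean was the lower one in each of the 5 batches, with differences of -0.36 to -0.0014. The KO mean was also the lower one in all 5 batches for *Tfr2* (-0.32 to -0.013) and *Tmprss6* (-0.11 to -0.022), and in fewer for the other members. Some of these batches hold 1 mouse of each genotype, and the share of all probe sets with the same sign in every batch was not computed. With quantile normalization the difference at 12 h was 0.0049 for *Tfr2* and 0.0076 for *Tmprss6*. *Id1* at 12 h averaged 8.06 ± 0.13 in KO and 7.85 ± 0.12 in WT livers (SD, n = 5 each), with 4 of 5 KO livers above every WT liver, a difference of 0.21 ± 0.09 (SE, limma p = 0.0283, adjusted p = 0.333, exact p = 0.0317). *Tfr2* at 0 h averaged 10.94 ± 0.19 in KO and 11.14 ± 0.16 in WT livers, a difference of -0.20 ± 0.09 (adjusted p = 0.987, exact p = 0.103).

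*Hamp* averaged 12.55 ± 0.41 in KO and 12.40 ± 0.29 in WT livers at 12 h (SD, n = 5 each), a difference of 0.14 ± 0.24 (SE, limma adjusted p = 0.852). At 0 h it averaged 12.39 ± 0.65 in KO and 12.86 ± 0.21 in WT livers, a difference of -0.46 ± 0.24 (0.727-fold, adjusted p = 0.987, exact p = 0.206). The 0 h value was uneven between batches. KO minus WT was 0.07 in batch 1, -1.35 in batch 2, -1.08 in batch 3 and -0.19 in batch 4, with 1 or 2 livers of each genotype per batch, and it was 0.14 in batch 5 at 12 h. Without batch 1 the 0 h difference was -0.84 (adjusted p = 0.99).

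*Hamp2* read 9.45, 9.05, 9.61, 8.81 and 9.44 in KO livers at 12 h, against 10.12, 9.85, 9.75, 10.31 and 11.16 in WT livers. At 0 h it read 9.67, 11.05, 9.07, 9.64 and 9.64 in KO livers, against 10.28, 9.77, 10.28, 9.72 and 10.01 in WT livers. At 12 h every KO liver was below every WT liver, and at 0 h 4 of 5 KO livers were below every WT liver while KO mouse 143, which also had the highest *Hamp*, was above them all. The difference was -0.97 ± 0.28 at 12 h (SE, 0.512-fold, limma p = 0.00234, adjusted p = 0.167, exact p = 0.00794), so that it did not pass, and 2.42% of all probe sets likewise had no overlap between genotypes at 12 h. It was -0.20 ± 0.28 at 0 h (adjusted p = 0.987). *Hamp* and *Hamp2* are close copies, and the sources used here do not say whether the probes of each set tell the transcripts apart.

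No member passed the test of a difference between genotypes in its change with time. Of 8 members 0 passed, where 0% of all probe sets passed and 1757 had an unadjusted p under 0.05 (limma). The widest difference was that of *Hamp*, whose change with time was higher in KO than in WT by 0.60 ± 0.33 on the log2 scale (SE, 95% interval -0.09 to 1.29, limma adjusted p = 0.764), and by 0.99 without batch 1 (adjusted p = 0.755). For *Tmprss6*, whose WT value missed the threshold, it was 0.11 ± 0.14 (adjusted p = 0.907). For *Tfrc* and *Smad7*, whose KO values missed it, it was -0.12 ± 0.28 (adjusted p = 0.956) and -0.12 ± 0.25 (adjusted p = 0.951), so a call in 1 genotype is not a difference between them.

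The next question was whether livers with more BMP target RNA also had more *Hamp*. The 6 pairs among *Hamp*, *Id1*, *Smad7* and *Bmp6* were correlated over 10 livers at each time, which makes 12 relations, and 0 passed after adjustment (permutation test, two-sided, 100000 resamples, Benjamini-Hochberg). At 12 h, where all livers are of 1 batch, *Hamp* and *Id1* had a Pearson r of 0.73 (permutation p = 0.0185, adjusted p = 0.124) and a Spearman rho of 0.709 (permutation p = 0.0273, adjusted p = 0.164), with r = 0.477 without the 2 livers farthest from the median of *Hamp*. *Hamp* and *Bmp6* at 12 h had r = 0.733 (permutation p = 0.021, adjusted p = 0.124) and rho = 0.60 (permutation p = 0.0731, adjusted p = 0.292), with r = 0.742 without those livers. At 0 h *Hamp* and *Id1* had r = 0.048 (permutation p = 0.882, adjusted p = 0.963), rho = -0.212 (permutation p = 0.56, adjusted p = 0.746), r = 0.042 without the 2 farthest livers and 0.24 with batch means removed. The pair of *Id1* and *Bmp6* at 0 h had r = 0.683 (permutation p = 0.0309, adjusted p = 0.124) and rho = 0.733 (permutation p = 0.0205, adjusted p = 0.164), with r = 0.565 without the 2 farthest livers and 0.681 with batch means removed. The other 8 relations had r between -0.015 and 0.565, with an adjusted p of 0.218 or more. With the genotype mean removed at each time, 2 relations passed the permutation test, *Hamp* with *Id1* at 12 h (r = 0.81, adjusted p = 0.0326) and *Id1* with *Bmp6* at 0 h (r = 0.78, adjusted p = 0.0167). In that run livers were shuffled across genotypes although removing the means ties the values within each genotype. Its p values may therefore be too small.

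*Tfr2* and *Tmprss6* are given as a description without a test, since the pair was chosen after its values were seen. Over the 10 livers at 0 h Pearson r was 0.939 and Spearman rho 0.903, with r = 0.86 without the 2 livers farthest from the median of *Tfr2* and 0.918 over the 7 livers outside batch 1. Over the 10 livers at 12 h, where *Tmprss6* hardly varied, r was 0.287 and rho 0.188, with r = -0.172 without the 2 farthest livers. As a description over all 20 arrays after group means were removed, *Hamp* had a Pearson r of 0.611 with *Smad7* (rank 83 of 20776 single-gene probe sets), 0.576 with *Hamp2* (rank 150), 0.391 with *Bmp6*, 0.373 with *Id1*, -0.028 with *Slc40a1*, -0.31 with *Tfrc*, -0.482 with *Tfr2* and -0.537 with *Tmprss6* (rank 20439). The 5 probe sets most like it were those of *Olfr898* (0.775), *Gtf2b* (0.755), *Rbak* (0.743), *Ccdc90b* (0.735) and *Ino80* (0.733). The points share arrays and batches. KO mouse 143 of batch 1 had the highest *Hamp* (13.25), *Smad7* (9.19) and *Hamp2* (11.05) among KO livers at 0 h. It also had the lowest *Tfr2* and *Tmprss6* of that group. The correlations with *Hamp* over all 20 arrays were not computed without this mouse or without batch 1.

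**Figure D3:**
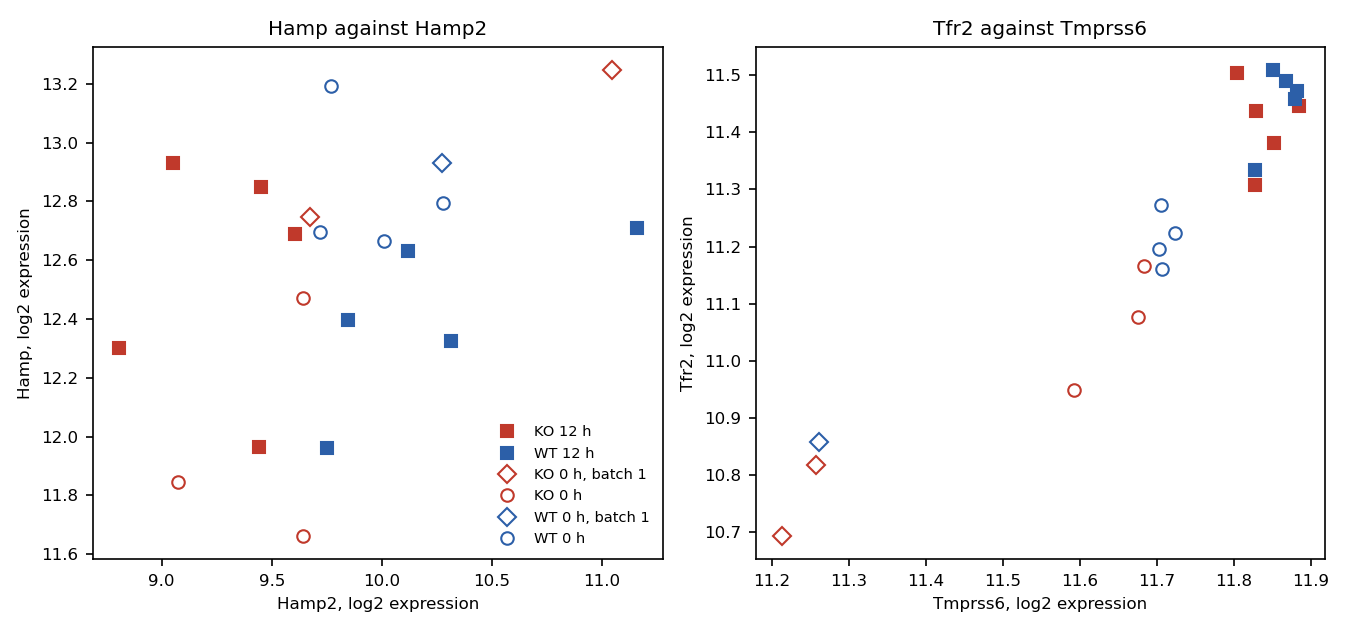
Log2 expression of *Hamp* against *Hamp2* on the left and of *Tfr2* against *Tmprss6* on the right, 1 point per liver, red for KO and blue for WT, filled squares for 12 h, open circles for 0 h and open diamonds for the batch 1 livers at 0 h. The KO livers at 12 h have lower *Hamp2* than the WT livers at the same time with *Hamp* in the same range, and *Tfr2* follows *Tmprss6* among the 0 h livers.

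Around the 8 members, some of 22 measured genes of HFE, hemojuvelin and BMP signalling were higher at 12 h and others lower. In KO livers 8 were higher and 2 lower at 12 h, and in WT livers 10 were higher and 5 lower (limma adjusted p under 0.05), with a median log2 fold change of 0.06 in each. Over all probe sets 10.6% were called higher and 9.69% lower in KO and 13.5% and 14.3% in WT, with medians of -0.02 and -0.03. *Acvr2a*, a type II receptor, changed by 0.60 ± 0.13 in KO and 0.66 ± 0.13 in WT livers (SE), *Bmpr2*, another type II receptor, by 0.44 ± 0.11 and 0.59 ± 0.11, *Smad9*, a SMAD of the same signal, by 0.59 and 0.62, and *Furin*, a proprotein convertase gene, by 0.55 ± 0.10 and 0.54 ± 0.10. The type I receptor gene *Acvr1* was not called, at 0.02 in KO and -0.06 in WT livers. The co-receptor gene *Hjv* was lower, with a change of -0.81 ± 0.11 in KO (adjusted p = 1.36e-05) and -0.39 ± 0.11 in WT livers (adjusted p = 0.0114), a difference between genotypes of -0.42 ± 0.16 (adjusted p = 0.639). *Hjv* lay between 9.62 and 10.22 in KO livers at 12 h, against 10.69 to 10.90 in KO livers at 0 h. The sensor gene *Hfe* was lower in WT (-0.41 ± 0.13, adjusted p = 0.0228) and was not called in KO (-0.35 ± 0.13, adjusted p = 0.0578).

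Among other genes of the ID family, which BMP signalling is known to induce, *Id2* was lower at 12 h in both genotypes and *Id3* and *Id4* in WT, while *Id1* was not called. *Id2* changed by -0.47 ± 0.12 in KO (SE, limma adjusted p = 0.00856) and by -0.71 ± 0.12 in WT livers (adjusted p = 0.000187). *Id3* changed by -1.27 ± 0.23 in WT (adjusted p = 0.00028) and was not called in KO, at -0.59 ± 0.23 (adjusted p = 0.0728). *Id3* read 8.36 to 9.29 in WT livers at 12 h, against 9.11 to 10.46 at 0 h, and the groups overlapped through WT mouse 111 at 12 h (9.29) and WT mouse 146 at 0 h (9.11). *Id4* changed by -0.44 ± 0.09 in WT (adjusted p = 0.00091) and was not called in KO, at -0.23 ± 0.09 (adjusted p = 0.0743).

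**Figure D4:**
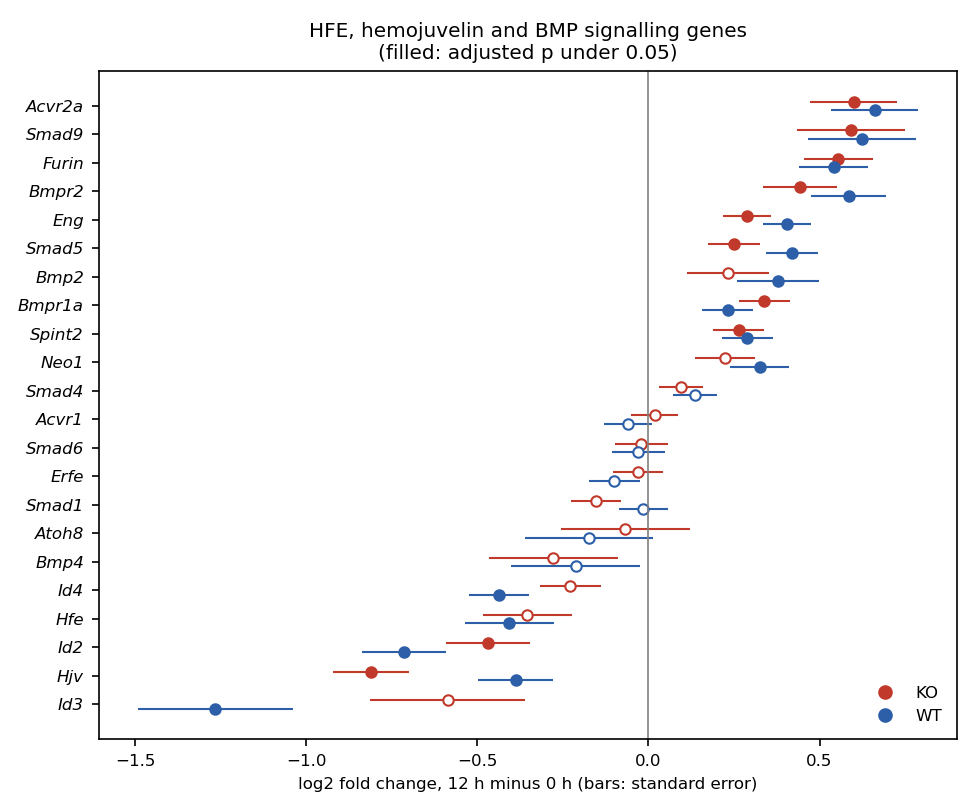
Log2 fold change, 12 h minus 0 h, of the 22 measured genes of HFE, hemojuvelin and BMP signalling in KO (red) and WT (blue) livers, with standard errors. Filled points passed at an adjusted p under 0.05, with *Acvr2a*, *Bmpr2* and *Furin* among the higher and *Hjv*, *Id2* and *Id3* among the lower.

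Among 18 measured genes of iron uptake, storage and export, 5 were higher and 2 lower at 12 h in KO livers, and 6 were higher and 2 lower in WT livers (20.3% and 27.8% of all probe sets were called), with medians of 0.08 and 0.16. With centred arrays 6 were higher and 1 lower in KO, and 9 higher and 0 lower in WT. The zinc and iron importer gene *Slc39a14* was higher by 0.90 ± 0.12 in KO and 0.83 ± 0.12 in WT livers (SE, limma adjusted p = 1.14e-05 and 2.67e-05), and the related *Slc39a8* was lower, with changes of -0.36 ± 0.06 and -0.21 ± 0.06. The mitochondrial iron importer genes *Slc25a37* (0.64 ± 0.13 in KO, 0.47 ± 0.13 in WT) and *Slc25a28* (0.44 ± 0.08 in each) were higher. *Ireb2*, which encodes an iron regulatory protein that stabilizes *Tfrc* mRNA, was higher by 0.38 ± 0.11 in KO (adjusted p = 0.021) and 0.66 ± 0.11 in WT livers (adjusted p = 0.000181). The transferrin gene *Trf* and the ferritin heavy chain gene *Fth1* were not called, at -0.10 in KO livers for each and at -0.10 and -0.06 in WT livers.

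Of 15 measured genes of heme handling, 6 were higher and 4 lower at 12 h in KO livers, and 4 were higher and 4 lower in WT livers (20.3% and 27.8% of all probe sets were called), with medians of 0.20 and 0.16. Centring gave 6 higher and 2 lower in KO, and 6 higher and 3 lower in WT. *Alas1*, the rate-limiting enzyme of heme synthesis in liver, was higher by 1.81 ± 0.22 in KO and 1.44 ± 0.22 in WT livers (SE, limma adjusted p = 3.88e-06 and 5.4e-05). The heme oxygenase gene *Hmox1* was lower, with changes of -0.50 ± 0.10 in KO and -0.63 ± 0.10 in WT livers. *Cd163*, the hemoglobin-haptoglobin receptor of macrophages, was higher by 0.72 ± 0.16 in KO and 0.82 ± 0.16 in WT livers, whereas of 10 Kupffer cell markers 0 were higher and 2 lower in KO livers and 0 were higher and 7 lower in WT livers. The mean level of those 10 markers ranged over 9.07 to 9.41 in KO and 8.97 to 9.30 in WT livers at 12 h, against 9.21 to 9.67 in KO and 9.41 to 9.71 in WT livers at 0 h. Their part in the changes with time was not tested.

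Of 19 measured genes of the interleukin 6 arm and the acute phase, 2 were higher and 7 lower at 12 h in KO livers, and 2 were higher and 5 lower in WT livers (9.69% and 14.3% of all probe sets were called lower), with medians of -0.22 and -0.29, and the counts were the same with centred arrays. The receptor gene *Il6ra* was higher by 1.47 ± 0.12 in KO and 1.53 ± 0.12 in WT livers (SE, limma adjusted p = 1.51e-08 and 8.54e-09), with *Jak2*, the kinase below it, higher by 0.28 ± 0.08 and 0.36 ± 0.08. *Saa1*, a serum amyloid gene, was lower in KO, with a change of -1.74 ± 0.57 (adjusted p = 0.0327) and was not called in WT livers (-1.24 ± 0.57, adjusted p = 0.109). The acute phase genes *Apcs* (-1.13 ± 0.31 in KO, -1.07 ± 0.31 in WT), *Fga* (-0.97 ± 0.10 and -0.60 ± 0.10) and *Fgg* (-0.49 ± 0.06 and -0.46 ± 0.06) were lower. *Stat3* itself was not called (0.02 and 0.04, adjusted p = 0.905 and 0.739).

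For genotype, 0 genes of these 4 lists passed at 12 h, at 0 h or over both times (limma), where the percentages of all probe sets that passed are given above. *Hjv* at 12 h averaged 9.95 in KO and 10.29 in WT livers, a difference of -0.33 ± 0.11 (SE, limma adjusted p = 0.209). Of the markers of sinusoidal endothelium, the source of BMP6 and BMP2, 0 of 10 passed for genotype, and their mean level ranged over 9.46 to 9.75 in KO and 9.67 to 9.97 in WT livers at 12 h, and over 9.56 to 9.76 in KO and 9.71 to 9.79 in WT livers at 0 h. Whether that lower range bears on *Bmp6* was not tested. For time, 2 of these markers were higher and 2 lower in KO, and 3 higher and 1 lower in WT livers. The mean of the 10 stellate cell markers, another cell type of the sinusoid, was 8.99 to 9.12 in KO livers at 12 h, below the 9.14 to 9.23 of WT livers, and it overlapped at 0 h (9.09 to 9.17 in KO and 9.09 to 9.21 in WT). None of these 10 markers passed for genotype at 12 h, with differences from -0.35 for *Reln* to 0.21 for *Col1a1*. At 12 h 2.42% of all single probe sets had no overlap between genotypes, and the share for means over 10 genes was not computed. Without the 3 arrays of batch 1, the counts of higher and lower genes for time were 7 and 3 in KO and 10 and 5 in WT livers for the BMP list, 4 and 1 in KO (median -0.03) and 5 and 2 in WT livers for iron transport, 3 and 2 in KO and 4 and 4 in WT livers for heme, and 2 and 5 in each for the acute phase.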

How the data were processed

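The authors deposited 1 log2 value per probe set and array, made with RMA (no version stands in the submitters' processing notes). The sources used here do not give genome build, array software or what the batch labels mean. Of 35557 probe sets, 9868 held no value and 25689 were tested, and no dim probe set was removed. The probe annotation gave 1 gene for 20777 of them, several for 232 and none for 4680, and joining it to the RefSeq gene table (GRCm38.p6) changed 0 symbols. Where a listed gene had several probe sets, the one with the highest mean was used.

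Groups came from the genotype and time in the labels. Mouse numbers name the animals and are shared by no 2 groups. All 20 arrays entered 1 model of 4 group means (limma 3.58.1, lmFit and eBayes, R 4.3.3), with Benjamini-Hochberg adjustment over all probe sets, a threshold of 0.05 and 95% confidence intervals. Single values were also compared by exact permutation over 5 against 5 mice, two-sided, and correlations by permutation with 100000 resamples (Python 3.11.15, scipy 1.17.1). Promoter windows were aligned with Biopython 1.88. The model was also run on simulated data that held no batch differences, so that run does not bear on time against batch. The number of arrays limits the precision.

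Alternatives were the batch label as a block, only the arrays compared, brighter probe sets, quantile normalization, centring on array medians, array weights, a trended robust prior and dropping arrays singly. Added after seeing the data were leaving out batch 1, leaving out WT mice 170 and 80, and batch 1 against the other 0 h batches. The text names all 8 members, *Crem*, up to 4 called genes per list, comparison and direction, the 5 genes most like *Hamp*, and a few named after their values were seen (*Hamp2*, *Acvr1*, *Trf*, *Fth1*, *Stat3*, *Saa2*, *Lcn2*, *Socs3*, *Hjv* for genotype). The members and lists were chosen with earlier results of these data known. Of the marker lists, stellate cells (10 of 10 measured), erythroid cells (6 of 10) and neutrophils (10 of 10) had 0 genes called for genotype. For time, stellate markers had 0 higher and 1 lower in KO and 2 higher and 1 lower in WT livers, erythroid markers 1 higher and 0 lower in KO and 0 higher and 1 lower in WT livers, and neutrophil markers 0 (2 higher in WT with centred arrays).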

Additional observations from a re-analysis of the deposited data

Results flagged for a closer look

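In 6 of 36 groups of 5 livers (9 genes, 4 groups each), the highest or lowest liver stood farther from the rest than Dixon's critical value of 0.71 of the range, where chance alone would give about 1.8. *Tmprss6* in WT mouse 146 at 0 h was 11.26, beside 11.70 to 11.72 in the other WT livers at that time, and *Tfr2* in the same liver was 10.86, beside 11.16 to 11.27. That array is the only WT array of batch 1, and the KO arrays of that batch were also low for both genes. *Smad7* in KO mouse 143 at 0 h was 9.19, beside 8.18 to 8.29, and without it the change with time in KO passed. *Tfrc* in WT mouse 170 at 12 h was 9.77, beside 10.59 to 10.80. *Tfr2* in WT mouse 167 at 12 h was 11.33, beside 11.46 to 11.51. *Id1* in KO mouse 166 at 12 h was 7.83, beside 8.09 to 8.15.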

How the results depend on the processing

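No paired analysis was possible because no mouse number occurs in more than 1 group. Time is confounded with batch, so the fixed block was fitted for genotype only, and the random block for time had a correlation of 0.029. That value cannot show a difference between batch 5 and batches 1 to 4, because the group means take it up. Alternatives that refitted all comparisons kept 5 to 7 of the 7 member calls. Counts of members called for genotype, and for the difference in the change with time, were 0 in every alternative run. For time the count moved to 5 of 8 in KO (*Tfrc* and *Bmp6* gained) when arrays were centred on their medians, and in WT to 6 of 8 with only bright probe sets (*Tmprss6* gained as higher, *Id1* as lower) and to 2 of 8 with array weights or without WT mice 170 and 80. *Tfrc* alone was gained in KO with only the arrays compared, bright probe sets or array weights (4 of 8 each). Leaving out single arrays gave 3 to 4 in KO and 2 to 5 in WT. Over all probe sets the calls for genotype at 12 h were 6, and moved to 3 with the fixed block, 0 with only the arrays compared, 23 with bright probe sets or with centring, 2 with quantile normalization or array weights, 11 with the trended prior and 1 without batch 1 (single arrays left out, 1 to 37). Over both times they were 3, and moved to 1 with bright probe sets and 0 without batch 1 (single arrays left out, 2 to 9). Single arrays left out gave 4463 to 5472 calls for time in KO and 5857 to 7140 in WT. Correlations that passed moved to 2 (0 in the deposited values) when genotype means were removed, with the limit on those p values given above. The cause was not tested.

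Values near 0 changed sign. For genotype at 0 h *Tfrc* was 0.0038 with the fixed block, 0.0052 with quantile normalization and 0.0289 with array weights, and *Smad7* was -0.0432 with the fixed block and -0.1867 without batch 1. Quantile normalization turned *Tfr2* (0.0049) and *Tmprss6* (0.0076) for genotype at 12 h and *Bmp6* for time in WT (-0.0264), and centring turned *Bmp6* for genotype over both times (-0.017) and *Id1* for time in KO (0.0094). Without batch 1 the difference in the change with time was 0.0049 for *Tfrc* and 0.0999 for *Smad7*. The correlation of *Id1* and *Smad7* at 12 h was 0.1648 with genotype means removed and 0.0557 with centring. Leaving out single arrays, values that changed sign had these ranges. For genotype at 0 h they were -0.1309 to 0.1037 for *Tfrc*, -0.0145 to 0.073 for *Id1* and -0.1529 to 0.1551 for *Smad7*, and at 12 h -0.1759 to 0.0309 for *Smad7*. Over both times they were -0.0205 to 0.0429 for *Bmp6* and -0.1199 to 0.0341 for *Smad7*. For time they were -0.0314 to 0.3645 for *Hamp* and -0.0919 to 0.0075 for *Id1* in KO, and -0.0432 to 0.0606 for *Bmp6* in WT. The difference in the change with time ranged over -0.3044 to 0.0061 for *Tfrc* and -0.242 to 0.066 for *Smad7*. Correlations ranged over -0.1457 to 0.2617 for *Hamp* and *Id1* at 0 h, -0.0144 to 0.3477 for *Smad7* and *Bmp6* at 0 h, and -0.1832 to 0.1542 for *Id1* and *Smad7* at 12 h.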

Other observations

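At each time, the 1 liver with the highest acute phase mean was not the one with the most *Hamp*. KO mouse 1 at 0 h had the highest mean over the 19 acute phase and interleukin 6 genes of all 20 livers (11.27, where the other 0 h livers lay between 10.40 and 10.90), with *Saa1* at 12.75, *Saa2* at 13.47 and the siderophore-binding *Lcn2* at 11.52. Its *Hamp* was 11.85, the second lowest of the 20 livers. The next highest means at 0 h were 10.895 in KO mouse 77, 10.831 in WT mouse 147 and 10.745 in WT mouse 78. In the same order, *Hamp* read 12.75, 12.67 and 13.19. KO mouse 110 at 12 h had the highest acute phase mean at that time (10.94, the others 10.32 to 10.53), with *Saa1* at 10.95, and its *Hamp* was 12.30. *Socs3*, a STAT3 target, was 8.08 in KO mouse 1 and 8.27 in KO mouse 110, within the range of the other livers (7.68 to 8.65). These livers and genes were picked after their values were seen, and no test was made.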
